A study of Homo sapiens with 6 samples.

Results

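NLGN4X, BRINP1 and RTN1, genes best known from neurons, had 3 of the strongest signal increases in PSMA-knockdown LNCaP cells, and they are described here with their family relatives NLGN1, NRXN3, RTN2, RTN3 and RTN4. LNCaP, an established line of human prostate cancer cells, makes PSMA, a membrane carboxypeptidase encoded by FOLH1. Control cells were untreated LNCaP grown in RPMI, with 3 arrays (LNCaP_untreated). Knockdown cells were LNCaP in the same medium, transduced with a retroviral shRNA-mir against PSMA, also with 3 arrays (LNCaP_PSMAknockdown). The labels name no empty vector in the controls, do not say whether the knockdown cells came from 1 clone, and do not say whether the replicates were separate cultures, so p-values speak only of array-to-array spread, possibly technical. Members were all probe sets annotated with exactly one of the 8 symbols, which gave 14 probe sets for 8 genes out of 19064 probe sets for 11963 genes. The set was chosen by the log2 rises of NLGN4X, BRINP1 and RTN1 between these same arrays, with relatives added by family. The values of the members are therefore a description without a test.

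Neuroligins are postsynaptic adhesion proteins that bind presynaptic neurexins across the synaptic cleft, and both attach to scaffold proteins inside the cell. BRINP1 is a secretory-pathway protein of the nervous system, named for its induction by bone morphogenetic protein and retinoic acid in neural cells, and it is known to slow the cell cycle. Reticulons share a carboxy-terminal membrane hairpin domain that bends the tubules of the endoplasmic reticulum. RTN1 is mainly neuronal and neuroendocrine, whereas RTN3 and RTN4 are made in most tissues, and RTN4 is also known as Nogo, an inhibitor of neurite growth.

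The sequences upstream of the 3 genes that were higher are shown because they differ in base composition although the 3 signals moved together. Each is the 250 bases before the gene start, taken from RefSeq (GRCh38.p14), 5′ to 3′ on the gene's strand. NLGN4X lies on the minus strand at chrX:6228868-6229117, BRINP1 on the minus strand at chr9:119369436-119369685, and RTN1 on the minus strand at chr14:59610140-59610389. Capitals mark the GC box (GGGCGG on either strand).
NLGN4X: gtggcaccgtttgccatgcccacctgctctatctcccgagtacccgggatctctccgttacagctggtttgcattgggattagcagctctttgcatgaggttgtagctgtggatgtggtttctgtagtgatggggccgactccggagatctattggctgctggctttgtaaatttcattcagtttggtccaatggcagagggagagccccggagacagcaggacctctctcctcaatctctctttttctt
BRINP1: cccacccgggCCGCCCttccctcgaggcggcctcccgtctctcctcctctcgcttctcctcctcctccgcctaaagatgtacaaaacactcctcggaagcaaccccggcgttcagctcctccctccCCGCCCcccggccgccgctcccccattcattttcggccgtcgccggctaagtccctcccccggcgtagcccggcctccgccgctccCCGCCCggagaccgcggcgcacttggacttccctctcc
RTN1: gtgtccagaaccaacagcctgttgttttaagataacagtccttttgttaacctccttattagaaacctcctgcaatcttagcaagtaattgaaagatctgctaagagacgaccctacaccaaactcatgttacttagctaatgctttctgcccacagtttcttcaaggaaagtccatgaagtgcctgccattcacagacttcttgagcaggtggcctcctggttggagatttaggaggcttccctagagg
Over the window that also holds the first 50 bases after the start (300 bases), the BRINP1 promoter was 70.7% G and C, with 33 CpG dinucleotides and an observed over expected CpG ratio of 1.05. The NLGN4X window was 52% G and C with 8 CpG (ratio 0.40), and the RTN1 window was 44% G and C with 1 CpG (ratio 0.07). Among 35116 RefSeq promoter windows of this length, 95.4% had a lower CpG ratio than BRINP1, 40.2% a lower one than NLGN4X and 5.97% a lower one than RTN1. The relatives fell within this range, from NRXN3 (ratio 0.21) to RTN3 (0.97). The GC box occurred 3 times in BRINP1 and not in NLGN4X or RTN1, against at least 1 match in 45% of all windows. Among the relatives it occurred 8 times in RTN2, 2 times each in NLGN1, RTN3 and RTN4, and not in NRXN3.

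Other motifs were searched on both strands of the same windows. These were the cyclic AMP response element TGACGTCA (in 1.85% of all windows), the retinoic acid half-site AGGTCA (13.8%), the androgen half-site AGAACA (14.8%), and the half-sites TTCAGCACC (0.376%) and GGACAG (20.5%) of the element bound by the neuronal repressor REST. None of these 5 had a match in the windows of any of the 8 genes. The TATA box TATAAA (11.5% of windows) matched once, in RTN1, at 20 bases after the start. RTN1 and other members have further start sites that these windows do not cover.

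The knockdown label was borne out by the target. The 3 probe sets shared by FOLH1 and its near copy FOLH1B had log2 differences of -2.27, -2.23 and -2.72, with every knockdown array lower (limma adjusted p = 1.9e-06, 1.9e-06 and 5.6e-06). The 1 dim probe set for FOLH1 alone differed by -0.79 (limma adjusted p = 0.0175). Over the genes tested, 2 arrays of the same group differed with an SD of 0.140 to 0.169 on the log2 scale, and 2 arrays of different groups with an SD of 0.364 to 0.377. The array's own controls also separated the groups: 18 hybridisation control probe sets averaged 11.34 ± 0.08 in control and 10.51 ± 0.13 in knockdown arrays (log2, SD, n = 3), and the 5′ minus 3′ signal of 6 control transcripts differed by log2 values from -0.10 (GAPDH) to -0.97 (the added poly-A control dap). Each had p = 0.1 in an exact permutation test, two-sided, the smallest that 3 arrays against 3 allow. Effects of array processing and of the knockdown therefore cannot be told apart, and the places of the members' probe sets along their transcripts were not used here.

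**Figure D1:**
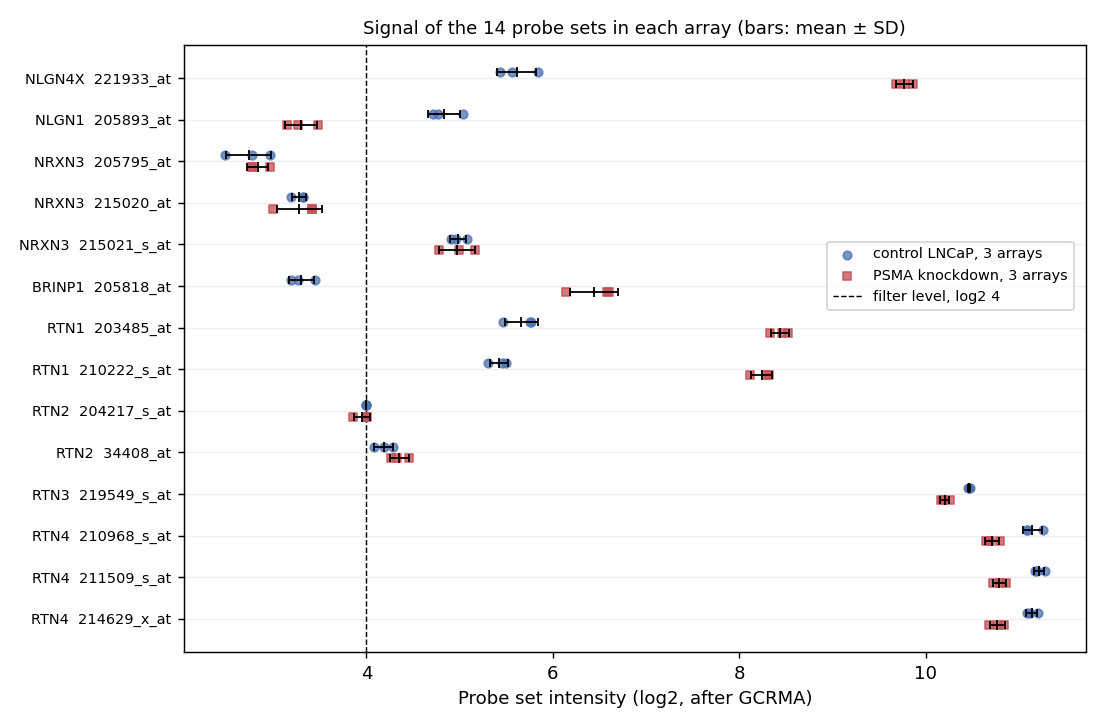
Log2 intensity of each of the 14 member probe sets (rows) in the 3 control arrays (circles) and 3 knockdown arrays (squares), with mean ± SD and the filter level at log2 4. NLGN4X, BRINP1 and both RTN1 probe sets lie far to the right in knockdown arrays, NLGN1 lies to the left, and the NRXN3 and RTN2 groups overlap.

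NLGN4X, an X-linked neuroligin, was measured by 1 probe set (221933_at). Its log2 signal was 5.56, 5.44 and 5.84 in control arrays 1 to 3 and 9.86, 9.68 and 9.77 in knockdown arrays 1 to 3. Every knockdown array lay above every control array, and the nearest 2 arrays of the different groups were 3.84 apart. The means were 5.61 ± 0.21 and 9.77 ± 0.09 (SD, n = 3), a log2 difference of 4.16 (SE 0.11), or 17.9-fold. This ranked first among the rises of all 19064 probe sets with 1 symbol. Pooled over both groups, the within-group SD of NLGN4X was 0.16, against a median of 0.09 for probe sets past the filter. The larger part of this spread lay between the control arrays.

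NLGN1, another neuroligin of excitatory synapses, differed the opposite way. Its only probe set (205893_at) gave 4.77, 4.71 and 5.03 in control arrays and 3.48, 3.15 and 3.26 in knockdown arrays on the log2 scale. No knockdown array reached the lowest control array, and all 3 knockdown values lay under the filter level of log2 4 (an intensity of 16), below which a signal was treated as low. The log2 difference was -1.54 (SE 0.11), 2.90-fold lower. With values under log2 4 raised to 4 it was -0.84, so its size rests on values in the low range.

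NRXN3 encodes a neurexin, the presynaptic partner family of both neuroligins. Its brightest probe set (215021_s_at) measured 4.91, 4.96 and 5.08 in control arrays and 4.99, 4.77 and 5.16 in knockdown arrays. The groups overlapped, with a log2 difference of -0.01 (SE 0.10), and 2 SE either way spans -0.21 to 0.20. The other NRXN3 probe sets (205795_at and 215020_at) stayed under log2 4 in all 6 arrays. NRXN2, the other neurexin past the filter, was at 0.08 (limma adjusted p = 0.552).

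BRINP1 was measured by 1 probe set (205818_at), from a control signal in the low range. It gave 3.19, 3.27 and 3.45 in control arrays and 6.58, 6.14 and 6.60 in knockdown arrays. All control arrays lay under the filter level and all knockdown arrays well above it, with 2.70 between the nearest arrays of the groups. The log2 difference was 3.14 (SE 0.13), 8.81-fold. With low values raised to log2 4 it was 2.44, because only the knockdown arrays carried a signal above that level.

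RTN1 was measured by 2 probe sets that gave nearly the same difference. The first (203485_at) read 5.77, 5.46 and 5.75 in control arrays and 8.33, 8.52 and 8.46 in knockdown arrays. The second (210222_s_at) read 5.31, 5.46 and 5.50 in control arrays and 8.28, 8.11 and 8.31 in knockdown arrays. Neither showed any overlap, with gaps of 2.56 and 2.62 between the nearest arrays of the groups. The log2 differences were 2.78 (SE 0.10) and 2.82 (SE 0.08), or 6.85-fold and 7.04-fold. RTN1 was the only one of the 3 strongly higher genes with a second probe set, and the pair differed from each other by 0.04.

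The other reticulons did not share this rise. RTN2, most abundant in muscle and brain, was near the filter level on both probe sets. The brighter one (34408_at) gave 4.19, 4.28 and 4.08 in control arrays and 4.33, 4.26 and 4.46 in knockdown arrays, overlapping, with a log2 difference of 0.17 (SE 0.08). The other (204217_s_at) had the same value, 3.99, in all 3 control arrays and in knockdown array 3, so its control SD of 0 is no measure of precision.

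RTN3, a reticulon of the endoplasmic reticulum that also takes part in its turnover by autophagy, was bright. Its probe set (219549_s_at) gave 10.45, 10.47 and 10.47 in control arrays and 10.18, 10.17 and 10.26 in knockdown arrays. All knockdown arrays were lower, by a log2 difference of -0.26 (SE 0.05), or 1.20-fold.

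RTN4 gave 3 concordant probe sets. On the brightest (211509_s_at) the values were 11.17, 11.19 and 11.27 in control arrays and 10.72, 10.79 and 10.86 in knockdown arrays, without overlap. The differences of the 3 probe sets were -0.43, -0.42 and -0.37, that is 1.29- to 1.35-fold lower. These probe sets may share target sequence and are not independent. RTN3 and RTN4 thus lay slightly lower in the arrays in which RTN1 was 6.85-fold higher.

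**Figure D2:**
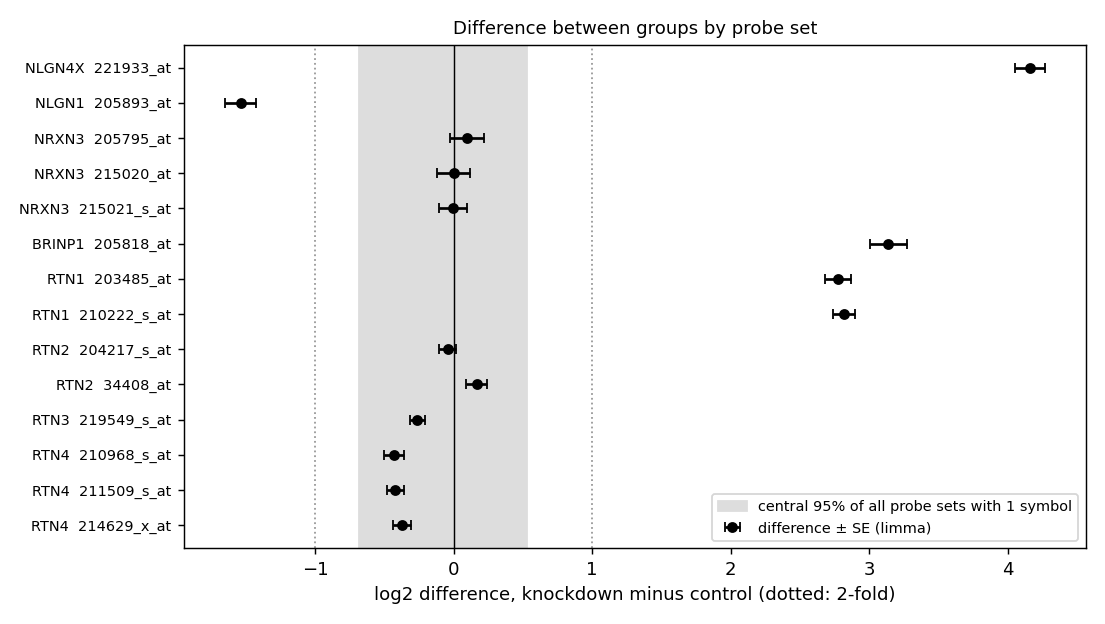
Log2 difference (knockdown minus control, ± SE from limma) of each member probe set, with the range that holds the central 95% of all probe sets with 1 symbol shaded (-0.69 to 0.53) and 2-fold changes dotted. The 4 probe sets of NLGN4X, BRINP1 and RTN1 lie between 2.78 and 4.16, NLGN1 lies at -1.54, and the other 9 lie inside the shaded range.

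Of the 14 probe sets, 4 were higher by 2-fold or more in knockdown arrays and 1 was lower by as much, where the shares over all probe sets with 1 symbol were 0.567% and 0.981%. Groups did not overlap for 4 probe sets on the higher side and 5 on the lower side (20.0% and 19.5% of all probe sets). The choice of the members fixes both counts of 4, which are the same probe sets. In order of difference, the last strongly higher probe set was that of RTN1 (6.85-fold) and the next was RTN2 (1.12-fold), with none between. All 8 genes passed the filter through 11 probe sets. NLGN1 and BRINP1 did so through the 3 arrays of their higher group alone.

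The genes around these members were taken from lists of partners, which were tested with limma across 9241 genes, where 35.9% were called, 19.4% higher and 16.5% lower, at an adjusted p under 0.05. The median difference over all these genes was 0.03. The balance of calls depended on the processing, with 2249 higher and 1321 lower under median centring, 2022 and 1439 under quantile normalization, and 1648 and 1683 with the mean of probe sets, against 1793 and 1526. Other synaptic adhesion proteins moved in both directions. Of 23 tested, 3 rose and 5 fell, with a list median of -0.02. Of the 37 genes of this list on the array, 14 did not pass the filter. In the scaffold, reticulon and retinoic acid lists below, 4 of 23, 2 of 16 and 7 of 25 did not pass it. SLITRK3, a receptor that organises inhibitory synapses, fell from 7.43 ± 0.03 to 5.26 ± 0.19 (log2, SD, n = 3), a difference of -2.17 (SE 0.09, limma adjusted p = 5.6e-06). TENM1, an X-linked teneurin that binds latrophilins, rose by 1.47 from a control mean of 4.05 ± 0.33 (limma adjusted p = 0.00046). FLRT2, a leucine-rich adhesion protein, fell by 0.99 on its brighter probe set while its other one differed by 0.20, and CNTNAP2, a member of the neurexin superfamily, fell by 0.50 (limma adjusted p = 0.00126 and 0.00312). CNTNAP2 had 3 further probe sets past the filter, at -0.53, -0.05 and -0.05. The neuroligin NLGN3 was at 0.12 (limma adjusted p = 0.507).

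The list of scaffold proteins around neuroligins and neurexins was also split, with 4 rises and 6 falls in 19 and a median of -0.02. It was wider than the proteins that bind their tails. NSF, HOMER2, HOMER3 and SHANK2, among the genes called, are not such tail-binding proteins. CASK, the kinase-like scaffold of the neurexin tail, fell from 8.61 ± 0.09 to 7.85 ± 0.04, a difference of -0.76 (limma adjusted p = 0.000121), and its second probe set differed by -0.71. LIN7B, which binds CASK, rose by 0.71 (limma adjusted p = 0.00057). HOMER3, a scaffold of glutamate receptors, rose by 0.48 (limma adjusted p = 0.00263), with 0.25 and 0.20 on dimmer probe sets. DLG4, or PSD-95, to which neuroligins attach, fell by 0.44 at a dim signal, from 4.22 ± 0.12 to 3.78 ± 0.24 (limma adjusted p = 0.0257). Its other probe set, which did not pass the filter, differed by -0.02, and with low values raised to log2 4 the difference was -0.21. The DLG4 call was lost without control replicate 1 or 3, without knockdown replicate 1 or 3, with array weights, and with the replicate number as a block, at an adjusted p of up to 0.0812.

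Of 14 tested reticulon receptors and proteins that shape the endoplasmic reticulum, 4 rose and 2 fell, with a median of 0.11. REEP1, a membrane-shaping protein with a hairpin like that of reticulons, rose by 0.73, from 4.93 ± 0.21 to 5.66 ± 0.17 (limma adjusted p = 0.00312), and its dimmer probe set differed by 0.28. SPAST, a microtubule-severing enzyme at the same membranes, rose by 0.33, and CKAP4, a protein of endoplasmic reticulum sheets, rose by 0.21 (limma adjusted p = 0.0022 and 0.019). BACE1, the beta-secretase that reticulons bind, fell by 0.28 (limma adjusted p = 0.0191). Without control replicate 1 the call for CKAP4 was lost, as it was without control replicate 3, and the call for BACE1 was lost without knockdown replicate 2 or 3. The 6 calls in this list became 3 without control replicate 1, control replicate 3 or knockdown replicate 2.

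Of 18 tested BRINP relatives and retinoic acid signalling genes, 1 rose and 3 fell, with a median of 0.01. The rise was in RARB, a retinoic acid receptor that is itself a retinoic acid target, from 5.69 ± 0.16 to 6.44 ± 0.04, a difference of 0.75 (SE 0.08, limma adjusted p = 0.000481). Its other 4 probe sets did not pass the filter. The retinal reductase DHRS3 fell by 0.42, the retinoic acid-producing enzyme ALDH1A3 by 0.32 and the BRINP relative ASTN2 by 0.21 (limma adjusted p = 0.0355, 0.00495 and 0.0139). The second ASTN2 probe set differed by 0.19, and with the mean of both the call was lost. The DHRS3 call was lost without control replicate 1 or 2, without knockdown replicate 1 or 2, with median centring, and with the replicate number as a block (adjusted p up to 0.113). The ASTN2 call was also lost without control replicate 2.

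Of 23 tested neuronal differentiation and REST-repressed genes, 5 rose and 2 fell, with a median of 0.11. MAP1B, a microtubule-associated protein of growing axons, rose from 7.98 ± 0.04 to 9.94 ± 0.04, a difference of 1.96 or 3.89-fold (SE 0.05, limma adjusted p = 6.3e-07), while its dimmer probe set differed by 0.35. NEFL, the light neurofilament chain, rose by 1.19 (limma adjusted p = 0.000201), with 0.96 and 0.24 on its dimmer probe sets. MAP2, a microtubule-associated protein of dendrites, rose by 0.81 (limma adjusted p = 3.5e-05). PCLO, a scaffold of the presynaptic active zone, fell by 1.10 from a control mean of 4.62 ± 0.19 to 3.51 ± 0.05, under log2 4 (limma adjusted p = 0.000166). PCLO passed the filter through the 3 control arrays alone, so its call is not independent of the filter. Leaving out any control replicate took PCLO out of the test. With low values raised to 4 its difference was -0.62, and its other probe sets, neither past the filter, were at -0.26 and 0.28. REST itself was at 0.23 (limma adjusted p = 0.217), and SYP, SNAP25 and GAP43 were at -0.02, 0.02 and 0.01, close to the filter level. The 7 calls became 3 without control replicate 1, and 4 without control replicate 3, knockdown replicate 2 or knockdown replicate 3. Of the 46 genes of this list on the array, 23 did not pass the filter. REST, NRXN2, NLGN3, SYP, SNAP25 and GAP43 were picked once their values had been seen.

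**Figure D3:**
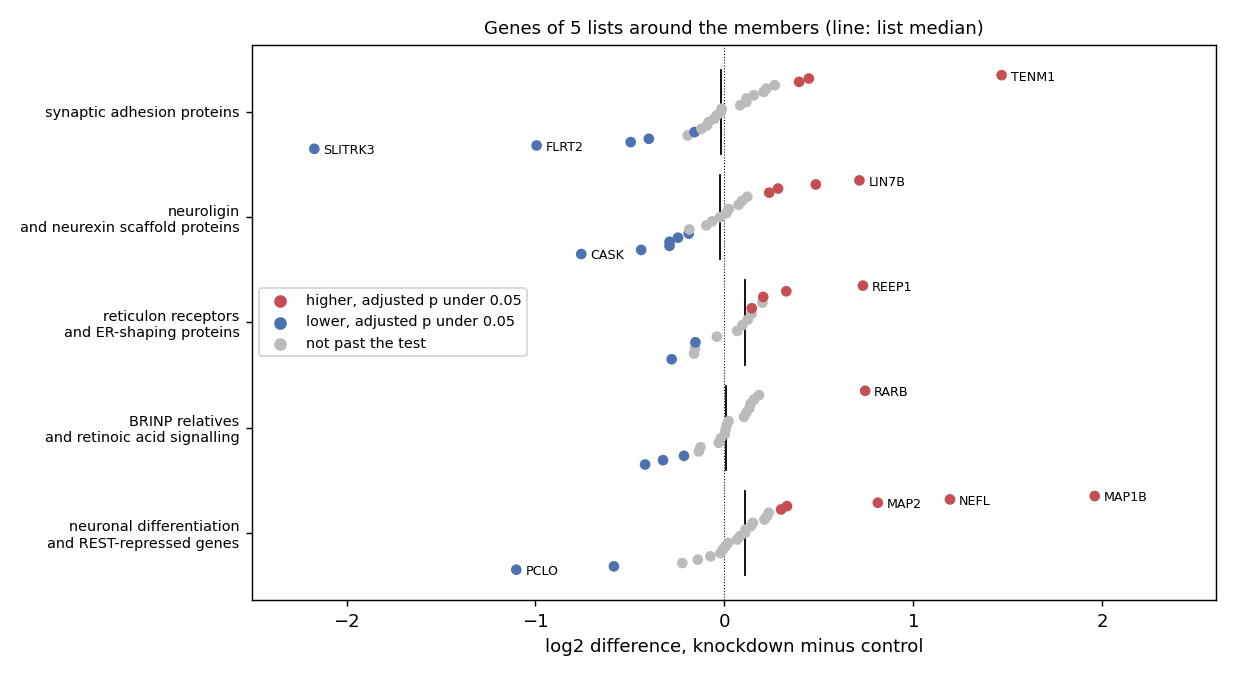
Log2 difference (knockdown minus control) of each tested gene in the 5 lists, coloured by the limma call, with the list median as a black line and the members left out. Each list holds rises and falls, SLITRK3 is lowest at -2.17, MAP1B is highest at 1.96, and all list medians lie between -0.02 and 0.11.

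Position along the chromosome was compared next, with the gene order of the RefSeq table (GRCh38.p14). The position of a gene was its lower chromosome coordinate, whatever its strand. For minus-strand genes such as NLGN4X, BRINP1 and RTN1 this is not the gene start used for the promoter windows. Tested genes positioned within 1 Mb of a member numbered 85 for 7 of the members. Of these 18 rose (21.2%) and 5 fell (5.88%), against 19.4% and 16.5% of all genes tested. The mean of probe sets gave 13 rises and 9 falls, median centring 23 and 4, and the replicate number as a block 20 and 8. BRINP1 had no tested neighbour in that window. NLGN4X had 1, PUDP, a pseudouridine phosphatase, at -0.10 (limma adjusted p = 0.251), and NLGN1 had 1, ECT2, which acts in cell division, at -0.30 (limma adjusted p = 0.114). The last was called with the replicate number as a block and with a trended, robust variance model.

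RTN1 had 4 tested neighbours, of which 3 rose. All of these lay on the side of its start. PCNX4, a pecanex family membrane protein, rose from 8.58 ± 0.16 to 9.43 ± 0.12, a difference of 0.85 (SE 0.10, limma adjusted p = 0.000542). DHRS7, a short-chain dehydrogenase, rose from 11.85 ± 0.01 to 12.78 ± 0.02, a difference of 0.93 (SE 0.05, limma adjusted p = 1.2e-05), and its second probe set differed by 1.04. PPM1A, a protein phosphatase, rose by 0.18 (limma adjusted p = 0.0408). On the other side, the formin DAAM1 was at -0.11 (limma adjusted p = 0.302). Over windows of 2 and 5 Mb, chosen after these values were seen, 3 of 12 and 7 of 33 neighbours rose, which is 25% and 21.2%, against 18.1% of the 321 tested genes of chromosome 14. NRXN3 lies on the same chromosome, and 0 of its 8 tested neighbours were called by limma (1 had an unadjusted p under 0.05), the nearest being SNW1 at 0.00 (adjusted p = 0.984).

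Of 35 tested neighbours of RTN2, 7 rose (20%) and 1 fell (2.86%), where 16.6% of tested chromosome 19 genes rose and 12.2% fell, with the nearest, FOSB and VASP, at 0.01 and -0.19 (limma adjusted p = 0.905 and 0.178). VASP was called lower without knockdown replicate 1. Of 31 of RTN3, 8 rose (25.8%) and 3 fell (9.68%), where 22.1% of tested chromosome 11 genes rose and 14.4% fell, and the nearest, PLAAT3 and ZFTA, were at 0.22 and -0.11 (limma adjusted p = 0.0669 and 0.396). PLAAT3 was called higher under 5 alternatives, among them quantile normalization, median centring and leaving out knockdown replicate 3. Of 5 of RTN4, 1 fell: CCDC88A, an actin-binding protein, by 1.66 (limma adjusted p = 5.5e-05), but its second probe set differed by -0.23. The nearest of RTN4, RPL23AP32 and MTIF2, were at 0.12 and 0.00 (limma adjusted p = 0.252 and 0.98). Over all neighbours the 23 calls became 15 without knockdown replicate 2.

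**Figure D4:**
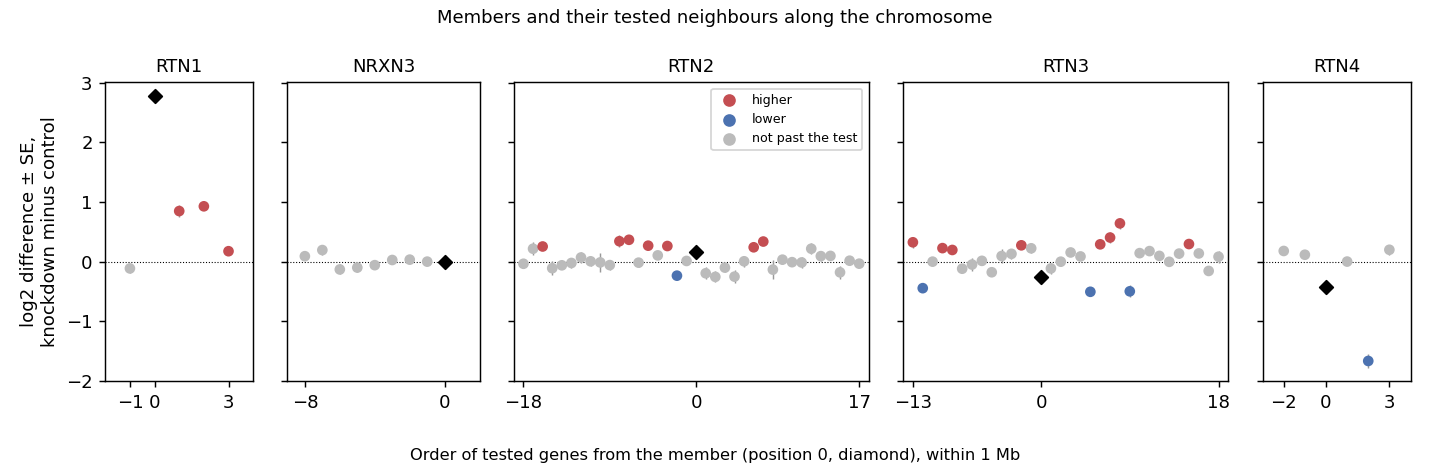
Log2 difference (knockdown minus control, ± SE) of tested genes within 1 Mb of 5 members, in order along the chromosome, with the member's brightest probe set as a diamond at position 0. Beside RTN1, PCNX4 and DHRS7 lie at 0.85 and 0.93, whereas the neighbours of NRXN3 lie between -0.13 and 0.20.

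The genes whose profiles over the 6 arrays were most like those of the 3 higher members were found by Euclidean distance between log2 profiles, each centred on its mean. Because the arrays form 2 groups, this likeness mainly reflects the size of the group difference. Nearest to NLGN4X were MEST, an imprinted gene (distance 1.13), ETV1, an ETS transcription factor (1.62), and IGFBP3, which binds insulin-like growth factors (1.65). Nearest to BRINP1 were MEST (0.41), IGFBP3 (0.46) and ETV1 (0.61). Nearest to RTN1 were IGFBP3 (0.46), ETV1 (0.48) and the peroxidasin PXDN (0.49). The smallest distance was larger for NLGN4X than for BRINP1 or RTN1. This largely follows from its larger group difference, a value used in its choice. The ETV1 profile was that of its brightest probe set (2.87), and its other ones differed by 0.39 to 0.50.

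The arrays were also checked for markers of the cells in which these genes are best known. All 8 luminal prostate markers on the array passed the filter, and 3 rose and 2 fell. ACP3 rose by 0.79, KLK2 by 0.41 and TMPRSS2 by 0.28, KLK3 fell by 0.71 and HOXB13 by 0.25 (limma adjusted p from 0.000178 to 0.0178), and KRT18 was at 11.57 in both groups. Of 11 neuron markers 6 passed, and STMN2, DCX, ELAVL4, SYT1 and NEFM lay under log2 4 on average in both groups. The summed linear intensity of the neuron markers was 1746 to 1953 in control and 1758 to 1913 in knockdown arrays, of which TUBB3 made up most. Without TUBB3, a sum formed after the values were seen, it was 185 to 199 in control and 272 to 283 in knockdown arrays. NEFL and MAP2 were the only neuron markers called, both higher. Of 8 neuroendocrine markers 3 passed, 1 of which fell (ENO2, at -0.58, limma adjusted p = 0.0282), and CHGA, CHGB, INSM1, SCG2 and SCG3 lay under the filter level. The summed intensity of all 8 neuroendocrine markers was 129 to 131 in control and 108 to 123 in knockdown arrays.

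Of 4 glial markers past the filter 2 rose and 1 fell. GFAP, among those that rose, had a control mean of 3.82 ± 0.04 and passed the filter through the 3 knockdown arrays alone. Summed over all 8 glial markers on the array, past the filter or not, intensities were 304 to 325 in control and 261 to 290.2 in knockdown arrays. Of 6 fibroblast and smooth muscle markers past the filter 2 rose, COL3A1 by 1.01 and ACTA2 by 0.95. Sums over all 9 of these markers on the array were 301 to 326 in control and 429 to 435 in knockdown arrays. Of 2 leukocyte and 2 endothelial markers past the filter, limma called 0, and 0 had an unadjusted p under 0.05, while PTPRC, KDR and CDH5 lay under log2 4 in both groups. The part of these markers in the members' differences was not tested.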

How the data were processed

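RNA from 3 control and 3 PSMA-knockdown LNCaP samples was hybridised to 1-colour Affymetrix arrays, and samples were grouped by title. The authors deposited probe set intensities on a linear scale, processed with GCRMA per the submitters' processing notes; neither a version nor settings were stated there. The number of arrays, not a depth, limits the precision.

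Intensities were log2-transformed. Of 22277 probe sets, 62 controls, 1043 with several symbols and 2108 with none were left out of gene tests. Genes were kept where at least 3 of 6 arrays reached log2 4, each represented by its brightest probe set (9241 genes). Knockdown was compared with control in limma 3.58.1 (lmFit, eBayes; R 4.3.3), p-values were adjusted by Benjamini-Hochberg over those genes, and a gene was called at an adjusted p under 0.05. SEs of member probe sets came from the same fit over all 19064 probe sets with 1 symbol. The fit was tested on simulated data. Members and lists were chosen with earlier results of these data known. Named genes were, per list, up to 4 called genes of the largest change, and the nearest tested gene on either side of each member. For NLGN4X, BRINP1 and RTN1 the 3 tested genes of most similar profile were added, members left out. Alternatives covered the filter, floor, normalization, probe set choice, variance model, array weights, the replicate block and leaving out each array.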

Additional observations from a re-analysis of the deposited data

How the results depend on the processing

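The differences of NLGN4X, NRXN3, RTN1, RTN2, RTN3 and RTN4 moved by less than the spread between replicates under every alternative that could be run for them. Leaving out 1 array gave 4.07 to 4.27 for NLGN4X, 3.06 to 3.29 for BRINP1 and 2.68 to 2.83 for RTN1. Raising values under log2 4 to 4 gave 2.44 for BRINP1 and -0.84 for NLGN1. RTN3 and RTN4 have no probe set outside the _x_at and _s_at kinds, so that alternative gave them no value. Without those kinds 2005 genes were called (of 5851 tested), with 2 calls in the reticulon list, 4 in the neuronal list and 14 among neighbours. The mean of probe sets gave 7 calls in the retinoic acid list. Leaving out 1 array gave 3 to 5 calls in the reticulon list, 3 to 6 in the neuronal list and 15 to 23 among neighbours. Each of these smaller sets also came with fewer arrays or genes in the test.

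With the replicate number as a block, 3394 genes were called, against 3319 without it. Deviations of same-numbered samples correlated by 0.11, 0.00 and 0.18. Control samples 1 and 3 correlated best with their own number, and control sample 2 did not. With 3 arrays per group these values cannot decide whether the labels' numbers pair the samples. The share of RTN1 neighbours called higher, 75% within 1 Mb, was 25% and 21.2% within 2 and 5 Mb, windows chosen after seeing the data. Signals under log2 4 limit what can be said of BRINP1 in control cells and of NLGN1 in knockdown cells.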
